A study of Mus musculus with 28 samples.

Results

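The regions described are intronic peaks of chromatin accessibility that had a lower mean count in hair follicle stem cells of old mice than in those of young mice. They are the rows of the ATAC-seq table that the authors annotated to an intron, on chromosomes 1 to 19, whose mean count over 4 old libraries was below the mean over 4 young libraries, without scaling. The rule took in 2283 of the 7849 listed peaks (29.1%), and 2283 of the 2700 listed autosomal intronic peaks (84.6%). The other 417 autosomal intronic peaks had more counts in old, and 45 lower intronic peaks on the X and Y chromosomes were outside the rule.

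Old mice were 24 months old and young mice 6 months, both groups were of the strain labelled 132-C67BL/6J, and no transgene or treatment is named for either age. Epidermal cells were released from skin with trypsin and sorted by flow cytometry as positive for Cd34 and α6 integrin, the pair of surface proteins that marks stem cells of the hair follicle bulge. ATAC-seq was done on 4 old and 4 young samples, with RNA-seq on 3 samples of each age. ChIP-seq covered the histone mark H3K27me3 in 3 samples of each age, and H3K4me3 as well as RNA polymerase II (Pol2) in 2 of each. The study asked how ageing of the stem cells' niche affects chromatin accessibility.

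In ATAC-seq a transposase cuts DNA where nucleosomes leave it exposed, and reads pile up into peaks at promoters and at distal elements. Introns hold many of the enhancers of mammalian genomes, sites bound by transcription factors that act on the host gene or on a neighbour. H3K4me3 marks active and poised gene starts, H3K27me3 is laid down by Polycomb repressive complex 2 over silenced developmental genes, and a promoter with both marks is called bivalent. Hair follicle stem cells stay quiescent through much of the hair cycle under BMP signals and are activated by Wnt signals.

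The members were chosen by their mean ATAC-seq counts in old and young libraries. The list they come from was itself selected on that comparison: no listed peak had a −log10 p-value under 2.00 or a log2 ratio nearer to 0 than 0.50 in either direction. The ATAC-seq differences between ages therefore describe the members and were not tested. In bulk samples, fewer cells with an open site and less opening per cell cannot be told apart. The members nearest to the edge of the rule included those in 1700064J06Rik and Ccdc148, each with a log2 ratio of -0.50. The 3 nearest intronic peaks on the other side, in Myh11, Pknox2 and Nme9, each had 0.50. The table therefore held no intronic peak near a ratio of 1, and the edge of the rule lay in a gap.

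Bases are shown for 5 of the 7 members that contain a whole RefSeq start window, to set a CG-rich start beside starts with fewer CG inside members. The other two lie in Mirt1 and St3gal3. A start window runs from 250 bases before to 50 bases after an annotated gene start, on GRCm38.p6, written 5′ to 3′ on the strand of the gene that starts there. Capitals mark each CG dinucleotide, the site of DNA methylation, which is dense in promoters of the CpG-island kind.
Celf2 start, within a Celf2 member, chr2:6871986-6872285, minus strand: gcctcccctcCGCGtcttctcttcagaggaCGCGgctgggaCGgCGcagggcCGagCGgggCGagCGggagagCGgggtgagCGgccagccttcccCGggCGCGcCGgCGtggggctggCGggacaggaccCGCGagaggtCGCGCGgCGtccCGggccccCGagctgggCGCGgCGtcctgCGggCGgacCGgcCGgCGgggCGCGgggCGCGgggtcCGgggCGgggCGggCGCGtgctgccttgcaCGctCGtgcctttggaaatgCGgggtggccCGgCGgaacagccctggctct
Dgka start, within a Dgka member, chr10:128737563-128737862, minus strand: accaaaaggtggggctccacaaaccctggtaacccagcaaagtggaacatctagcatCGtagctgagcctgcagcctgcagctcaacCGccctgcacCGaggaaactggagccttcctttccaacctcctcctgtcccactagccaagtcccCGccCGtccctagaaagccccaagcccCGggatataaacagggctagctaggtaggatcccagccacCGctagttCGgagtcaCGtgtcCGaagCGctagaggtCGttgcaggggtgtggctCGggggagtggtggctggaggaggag
Gm36363 start, within an Eva1c member, chr16:90851094-90851393, minus strand: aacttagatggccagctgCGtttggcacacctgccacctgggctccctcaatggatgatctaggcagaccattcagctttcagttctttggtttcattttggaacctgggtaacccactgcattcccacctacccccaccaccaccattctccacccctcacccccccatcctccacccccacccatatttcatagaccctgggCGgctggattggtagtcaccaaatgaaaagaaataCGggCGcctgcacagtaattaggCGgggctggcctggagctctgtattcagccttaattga
Gm40010 start, within a Bmp7 member, chr2:172934097-172934396, minus strand: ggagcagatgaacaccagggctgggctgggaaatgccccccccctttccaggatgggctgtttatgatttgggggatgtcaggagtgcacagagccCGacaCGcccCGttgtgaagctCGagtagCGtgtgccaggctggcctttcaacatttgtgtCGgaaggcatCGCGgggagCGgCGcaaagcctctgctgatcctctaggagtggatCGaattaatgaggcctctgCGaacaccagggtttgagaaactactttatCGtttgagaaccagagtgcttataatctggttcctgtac
Gm31497 start, within a Barx2 member, chr9:31905737-31906036, plus strand: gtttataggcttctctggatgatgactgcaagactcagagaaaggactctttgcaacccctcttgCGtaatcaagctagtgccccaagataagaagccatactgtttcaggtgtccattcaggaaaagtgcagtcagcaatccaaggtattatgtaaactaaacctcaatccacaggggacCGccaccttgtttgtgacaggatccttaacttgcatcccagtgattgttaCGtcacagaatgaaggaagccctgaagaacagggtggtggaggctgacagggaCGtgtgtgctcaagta

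The 5 windows differed widely in CG content. The Celf2 window held 48 CG dinucleotides at 80.3% GC, against a median of 7 and 52.7% over 32851 RefSeq windows. Celf2 encodes an RNA-binding regulator of splicing, and its member had 478, 461, 488 and 342 counts in old libraries, against 644, 622, 825 and 751 in young ones. All 4 old libraries lay below all 4 young libraries there. The Celf2, Bmp7 and Barx2 members lay on an H3K4me3 peak and that of Barx2 also on a Pol2 peak, and those of Dgka and Eva1c lay on none of the 3 kinds of ChIP-seq peak. The windows within the Dgka and Bmp7 members held 13 CG each, that of Eva1c held 5 and that of Barx2 held 4. Dgka encodes a diacylglycerol kinase, and its member had 404, 403, 437 and 477 counts in old libraries, against 455, 759, 732 and 628 in young ones, so that the ages overlapped through young library 1.

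The Eva1c member had 520, 531, 579 and 692 counts in old libraries, against 1081, 965, 982 and 900 in young ones, with no overlap. Bmp7 encodes a bone morphogenetic protein, and its member with the Gm40010 start had 154, 169, 157 and 224 counts in old libraries, against 254, 316, 194 and 397 in young ones. Old library 4 was above young library 3 there. Barx2 encodes a homeobox factor found in hair follicles, and its member had 126, 190, 83 and 73 counts in old libraries, against 192, 243, 218 and 265 in young ones. The Barx2 window held the GATA letters AGATAA, read on both strands, which 11.2% of all RefSeq windows hold, with the first base at position 87 of the window. The Eva1c window held the E-box letters CAGCTG, as 16.3% of all windows do. None of the 8 letter patterns searched was present in the other 3 windows shown. Of the 2283 members, 14 (0.613%) touched a start window, and for 2 of the 14 the start was that of the host gene. The share was 0.24% of intronic peaks with more counts in old and 1.52% of intergenic peaks with fewer counts. It was 28% of promoter peaks with fewer counts and 7.08% of all other listed peaks, which include promoter peaks. The rule took peaks annotated to introns, so nothing is read from the low share.

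In median width and in median distance to gene starts the members were near listed peaks in general. Their median width was 450 bp (quartiles 350 and 600 bp), the same as over all listed peaks. Their median distance to the nearest start was 26358 bp, against 24311 bp for all listed peaks. It was 46875 bp for distal intergenic peaks with fewer counts in old and 29118 bp for intronic peaks with more counts in old. Within 10 kb of a start lay 22.6% of the members, against 16.1% of the intronic peaks with more counts. The share was 30.8% of all listed peaks, which include promoter peaks. The annotation numbers introns from the low coordinate on both strands, so the number was turned for genes on the minus strand. Of 2135 members whose gene strand was found, 708 (33.2%) lay in the first intron of the annotated transcript and 213 (9.98%) in the last. For intronic peaks with more counts in old these shares were 28.5% and 13.5%, and the differences were not tested.

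The members' median log2 ratio of old to young counts was -0.68 (quartiles -0.84 and -0.58, range -2.72 to -0.50). Distal intergenic peaks with fewer counts had a median of -0.68, promoter peaks with fewer counts -0.64 and all listed peaks -0.64. A log2 ratio of -1 or below was found in 294 members (12.9%), and one of -1.5 or below in 27. Members with few reads had the larger folds: the median log2 ratio was -0.85 in the 571 members with the lowest young counts and -0.61 in the 569 with the highest. Every old count was below every young count in 925 members (40.5%), against 35.8% of all listed peaks, and since the listing used this contrast nothing is read from that share. From the lowest to the highest young counts, in 4 groups of 571, 573, 570 and 569 members, it was 35.0%, 30.7%, 41.2% and 55.2%.

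Scaling of the libraries bears directly on these values. Sums over all listed peaks were 1946804, 1854903, 1776585 and 1572998 counts in old libraries, against 2456110, 2528298, 2487485 and 2773284 in young ones. Over the members alone the sums were 524648, 508905, 466121 and 413546 counts in old libraries, against 735597, 736979, 737631 and 839164 in young ones. The members' share of listed counts was 26.2% to 27.4% in old libraries and 29.1% to 30.3% in young ones. The rule chose members for lower old counts, so nothing is read from this difference. TMM scaling over the listed peaks moved the median log2 ratio of all listed peaks by 0.59, to -0.05, and that of the members to -0.09, and 1637 of the 2283 members were still lower. Every old value was below every young one at 46 members under that scaling, against 162 of all listed peaks (2.06%). Members stood 0.04 below the median of all listed peaks both with and without TMM scaling. All listed peaks include some with more counts in old, which the rule leaves out, so nothing is read from that gap. Old library 4 had the lowest of the 4 old counts in 47.9% of members and young library 4 the highest of the 4 young counts in 45.1%. Without both, 2260 intronic peaks were lower in old and the members' median log2 ratio was -0.58.

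The 10 members with the largest fold among those with a mean young count of at least 50 were single, mostly small peaks in genes of varied function. The largest fold was at chr7:6749151-6749600, in the last of 3 introns of Usp29, which neighbours Peg3, is imprinted and is expressed from the paternal copy. That peak had 51, 61, 22 and 37 counts in old libraries, against 211, 280, 257 and 377 in young ones. The highest old count there was far below the lowest young count (log2 ratio -2.72). Usp29 held 3 members, with log2 ratios between -2.72 and -0.59 and a median of -2.01.

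The member in Adgrd1, an adhesion G protein-coupled receptor gene, at chr5:129190151-129190500, had 28, 4, 51 and 68 counts in old libraries, against 113, 115, 190 and 201 in young ones (log2 ratio -2.04). The member in Tox2, which encodes an HMG-box protein, at chr2:163248551-163248850, had 45, 16, 51 and 12 counts in old libraries, against 104, 132, 110 and 141 in young ones (log2 ratio -1.97). Both had wide relative spread among old libraries and no overlap between ages. The member in Xkr4, of the XK family that includes phospholipid scramblases, had 97, 180, 69 and 44 counts in old libraries, against 305, 238, 318 and 526 in young ones (log2 ratio -1.83). The member in Slco3a1, an organic anion transporter gene, had 41, 74, 79 and 42 counts in old libraries, against 207, 254, 240 and 136 in young ones (log2 ratio -1.83). Xkr4 had its extremes in the libraries numbered 4, and Slco3a1 had its lowest young count in young library 4.

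The other 5 members of this group lay in Nwd2, in Camk1d, a calcium- and calmodulin-dependent kinase gene, in Slc24a3, a gene for a sodium, potassium and calcium exchanger, in Aopep and in a transcript whose gene ID had no RefSeq match. Their log2 ratios ran from -1.80 to -1.69, and no old count reached a young count in any of them. The unmatched peak had the thinnest data, with 13, 51, 10 and 13 counts in old libraries, against 53, 59, 117 and 73 in young ones.

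The 5 members with the highest young counts were wide peaks with small folds. Lgr4 encodes a receptor for R-spondins, which raise Wnt signalling, and its first intron held the highest of them, at chr2:109952451-109954200. That peak had 2789, 3177, 2353 and 2115 counts in old libraries, against 3570, 3542, 3551 and 4438 in young ones (log2 ratio -0.53). The ages did not overlap, and young library 4 stood well above the other 3 young libraries. Dlc1, which encodes a GTPase-activating protein of the actin cytoskeleton, held a peak at chr8:36639401-36641350 with 2386, 2196, 2165 and 2630 counts in old libraries, against 3439, 3551, 3454 and 3508 in young ones (log2 ratio -0.57). The SD of the Dlc1 peak was 214 counts over old libraries and 51.4 over young ones.

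Ppp2r5c, which encodes a regulatory subunit of protein phosphatase 2A, held a peak with 1575, 1719, 1449 and 1707 counts in old libraries, against 2322, 2800, 2039 and 2110 in young ones (log2 ratio -0.52). The β6 integrin gene Itgb6, whose product pairs with αv and activates latent TGF-β in epithelia, held one with 1866, 1642, 1503 and 1433 counts in old libraries, against 1942, 2250, 2298 and 2626 in young ones (log2 ratio -0.50). The fifth lay in Pappa, a metalloproteinase gene whose product cleaves IGF-binding proteins, with 1583, 1496, 1170 and 1252 counts in old libraries, against 2097, 2035, 1926 and 2158 in young ones (log2 ratio -0.58). All 5 were lower in old as deposited with no overlap, and all 5 turned to slightly above 0 under TMM scaling, as they lay nearer to 0 than the shift of all listed peaks.

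**Figure D1:**
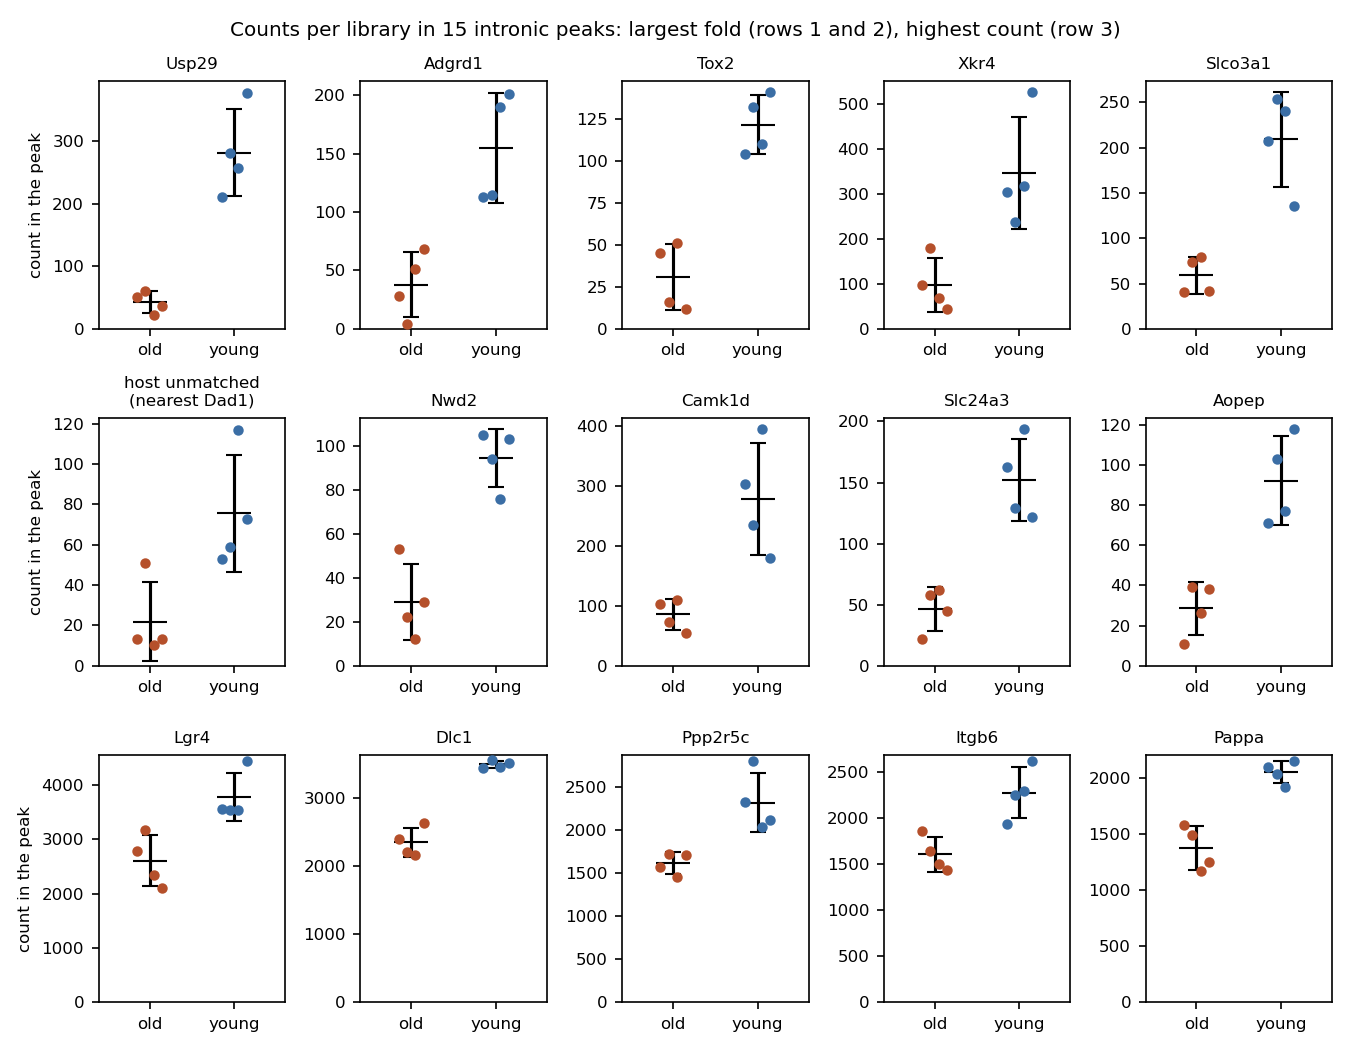
Counts per ATAC-seq library (vertical axis, reads in the peak, unscaled) in 4 old and 4 young libraries for the 10 members with the largest fold (upper rows) and the 5 with the highest young count (bottom row). Points are libraries and bars are mean ± SD (n = 4). No old point reaches a young point in any panel, and the peaks of the bottom row, which turn to slightly above 0 under TMM scaling, have the smaller folds.

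The host gene of a member was taken as the gene whose intron the authors annotated. A RefSeq gene was matched to 2180 members, and the members lay in 1434 genes. For 1670 members (76.6%) the host was also the gene with the nearest start, and for 510 (23.4%) another gene started nearer. A single member was held by 1008 genes, 2 or more by 426, 3 or more by 153 and 5 or more by 44. The 153 genes with 3 or more held 626 members (27.4%). Of these 153 genes, 20 (13.1%) also held an intronic peak with more counts in old, against 113 (7.88%) of all 1434 host genes.

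Genes with several members were long. The median length was 386 kb for genes with 5 or more members, 255 kb for those with 3 or 4, 136 kb for those with 2 and 81.7 kb for those with 1, against 17.1 kb over all protein-coding RefSeq genes. It was 148 kb for the 353 genes with an intronic peak that had more counts in old, so length was not particular to genes with members. Spearman's correlation between the number of members and gene length was 0.37 over the 1434 genes, which are not independent replicates. Members per 100 kb did not climb in step with the count: the median was 1.55 for genes with 5 or more members, 1.19 for those with 3 or 4 and 1.47 for those with 2. Among genes with 3 or more members, all within their RefSeq bounds, the densest were Emp1, an epithelial membrane protein gene, with 4 members in 20.6 kb, Smad7, an inhibitor of TGF-β and BMP signalling, with 3 members in 28.6 kb, and Ezr, which encodes the membrane-to-actin linker ezrin, with 4 members in 44.7 kb.

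The 12 genes with most members are described by the sum of their members' counts. Each sum adds peaks chosen for lower old counts, so nothing is read from ages that do not overlap in a sum. Since 16 genes held 6 members each, the 4 with the highest summed mean young count complete the 12. The log2 ratios of these sums ran from -0.74 in Rarb to -0.59 in Pde4d on unscaled counts, and from -0.16 in Rarb to -0.00047 in Sgms1 under TMM scaling. Sgms1, which encodes a sphingomyelin synthase, held 11 members spread over 188 kb on chromosome 19. Their sums were 3996, 4265, 3923 and 3418 counts in old libraries, against 5508, 5876, 5807 and 6301 in young ones. The ages did not overlap in the sum, and at 5 of the 11 peaks they did not overlap singly, against 40.5% of all members. No intronic peak with more counts in old was listed in Sgms1.

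The uncharacterised gene 2610307P16Rik held 10 members over 252 kb of chromosome 13 and also 2 promoter peaks with fewer counts. Its sums were 3263, 3367, 2842 and 1995 counts in old libraries, against 4537, 3666, 4680 and 5377 in young ones. Macrod2, an ADP-ribose hydrolase gene of 1998 kb on chromosome 2, held 10 members with sums of 3054, 3172, 2655 and 2450 counts in old libraries, against 3991, 4378, 4016 and 5283 in young ones. Macrod2 also held 2 intronic peaks with more counts in old. Aopep, an aminopeptidase gene on chromosome 13, held 10 members with sums of 2586, 2649, 2302 and 1588 counts in old libraries, against 3012, 3677, 3670 and 4147 in young ones. At 8 of the 10 Aopep peaks the ages did not overlap, a contrast the listing used, and 1 listed intronic peak of Aopep had more counts in old.

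Genes of signalling pathways followed. Ltbp1, whose product binds latent TGF-β in the matrix, held 8 members with sums of 2180, 2050, 1869 and 1101 counts in old libraries, against 2684, 2656, 2762 and 3212 in young ones. The cAMP phosphodiesterase gene Pde4d held 7 members, all in introns with the same number, with sums of 3606, 3490, 3219 and 2156 counts in old libraries, against 4495, 3903, 4830 and 5480 in young ones. The retinoic acid receptor gene Rarb held 7 members with sums of 1666, 1324, 1201 and 838 counts in old libraries, against 2096, 1740, 1796 and 2779 in young ones. In each of these genes the sums did not overlap between ages and the lowest old sum was in old library 4. Under TMM scaling the log2 ratios of the sums were -0.08 in Ltbp1, -0.0066 in Pde4d and -0.16 in Rarb.

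Auts2, linked to neurodevelopment and to Polycomb complexes, held 7 members with sums of 971, 866, 627 and 541 counts in old libraries, against 1250, 944, 1223 and 1435 in young ones. The Auts2 sums overlapped, as old library 1 exceeded young library 2. Dlc1 held 6 members with sums of 4171, 3952, 3564 and 4128 counts in old libraries, against 6677, 5745, 6019 and 5876 in young ones. The log2 ratio of the Dlc1 sums was -0.62 unscaled and -0.03 under TMM scaling. Adgrv1, an adhesion G protein-coupled receptor gene, held 6 members with sums of 3196, 3049, 2728 and 3126 counts in old libraries, against 4965, 4201, 5289 and 4503 in young ones. Dlc1 and Adgrv1 stood apart from the rest of the 12 in that old library 4 was not the lowest.

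Pappa held 6 members with sums of 3186, 3297, 2673 and 2494 counts in old libraries, against 4441, 4006, 4157 and 4911 in young ones. Its members differed among themselves: the peak at chr4:65242801-65243050 had 91, 75, 39 and 24 counts in old libraries, against 22, 28, 118 and 231 in young ones. Young libraries 1 and 2 were below 3 of the 4 old libraries at that peak, and its mean rested on the other two. Zbtb16, which encodes the transcriptional repressor PLZF, held 6 members with sums of 2224, 2019, 1893 and 1539 counts in old libraries, against 4070, 3975, 2188 and 2014 in young ones. Young libraries 3 and 4 lay among the old ones, and at each of the 6 Zbtb16 peaks taken singly the ages overlapped.

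**Figure D2:**
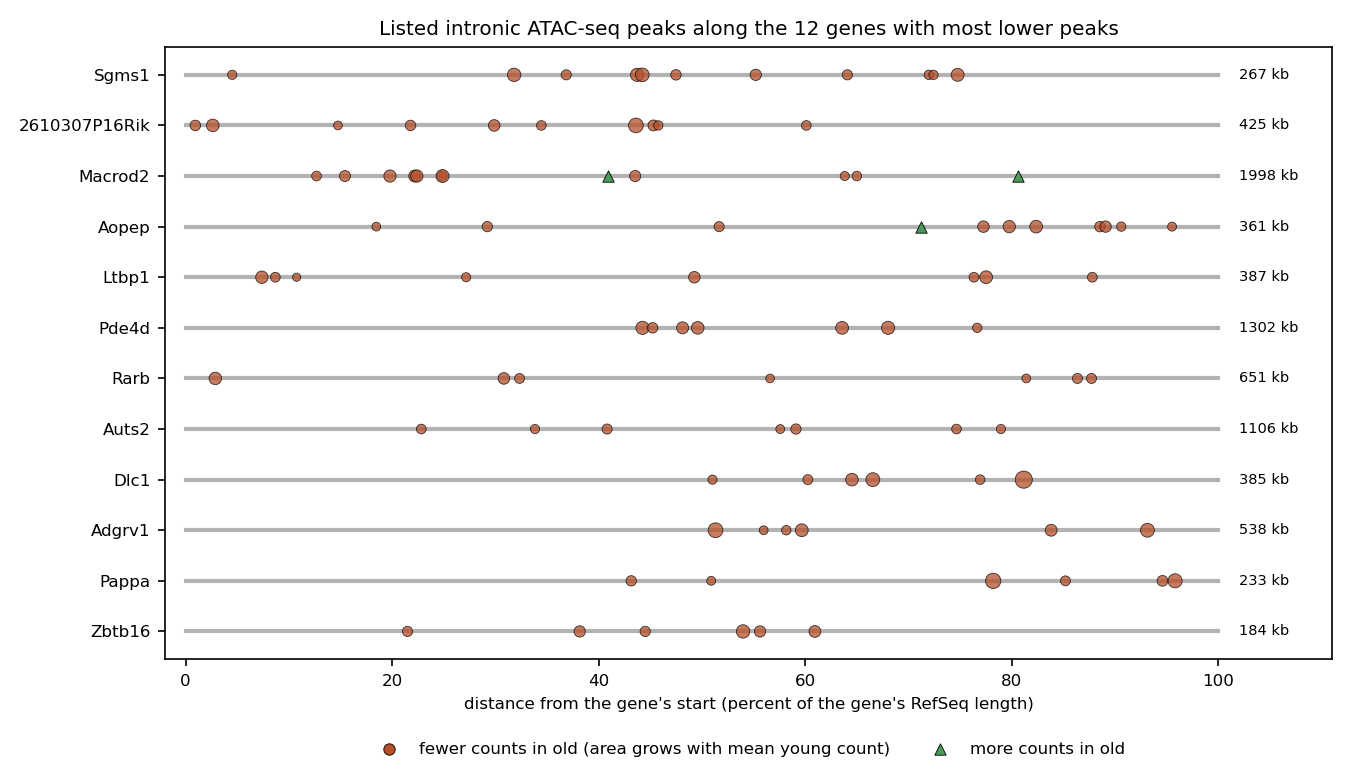
Position of every listed intronic ATAC-seq peak along the 12 genes with most members, as distance from the gene's start in percent of its length (horizontal axis), with the length in kb at the right. Circles have fewer counts in old, their area growing with the mean young count, and triangles have more. The members of Pde4d, Dlc1, Adgrv1 and Pappa begin near the middle of the gene, and triangles appear in Macrod2 (2) and Aopep (1).

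Overlap with the histone marks and with Pol2 did not enter the rule. A ChIP-seq peak counted as overlapping when it shared at least 1 base with a member. Intervals are 95% Wilson intervals, which cover counting error only. Most members lay on none of the 3 kinds of ChIP-seq peak, 1998 of 2283 (87.5%), against 75.4% of all other listed peaks. These members lay a median of 28841 bp from the nearest start, and the 174 on an H3K4me3 peak a median of 7059 bp. An H3K4me3 peak and a Pol2 peak together lay on 40 members, H3K4me3 and H3K27me3 together on 9, and H3K27me3 and Pol2 together on 0.

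H3K27me3 peaks of the authors' deposited table overlapped 81 members (3.55%, interval 2.86 to 4.39%), against 3.84% of intronic peaks with more counts, 5.84% of intergenic peaks with fewer counts and 27.6% of promoter peaks with fewer counts. H3K4me3 peaks overlapped 174 members (7.62%, interval 6.60 to 8.78%), against 6.24%, 4.96% and 63.3% of the same classes. Pol2 peaks overlapped 79 members (3.46%, interval 2.79 to 4.29%), against 1.20%, 0.708% and 7.02%. The Pol2 interval of the members did not overlap that of intergenic peaks with fewer counts (0.459 to 1.09%). The 79 members on Pol2 shared 65 Pol2 peaks, so neighbouring members were not independent.

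**Figure D3:**
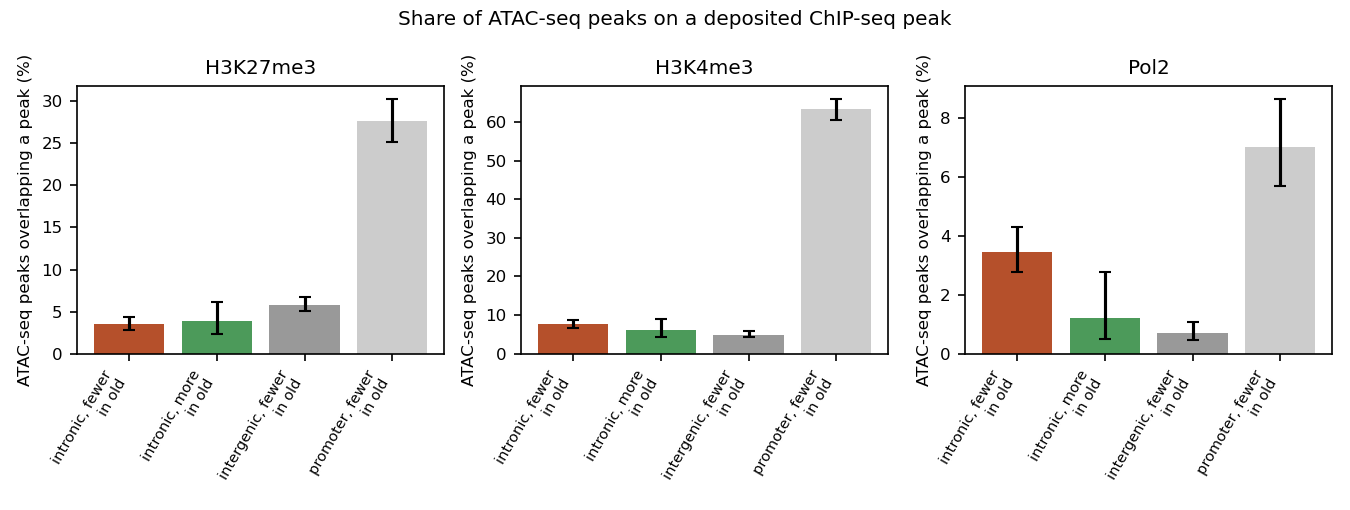
Percent of ATAC-seq peaks that overlap a deposited H3K27me3, H3K4me3 or Pol2 peak (vertical axes, which differ between panels), for intronic peaks with fewer and with more counts in old, and for intergenic and promoter peaks with fewer counts. Error bars are 95% Wilson intervals. Promoter peaks are highest in each panel, and 3.46% of members are on a Pol2 peak, against 0.708% of intergenic peaks with fewer counts.

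H3K27me3 under the members went down where it was called at all. Of the 82 H3K27me3 peaks under members, 21 (25.6%) were called lower in old at the authors' FDR under 0.05 and 0 were called higher, against 2.6% lower and 2.66% higher over the 67985 peaks of the authors' deposited table. The same share was 24.6% under all other listed ATAC-seq peaks, so the members' share was near that of listed peaks in general. Peak width moved with it: of the 31 H3K27me3 peaks under members that were 10 kb or wider, 17 were called lower, against 15.6% of all peaks of that width in the authors' deposited table, and of the 26 under 2 kb, 0 were. The part of width in the result was not tested. In all, 23 members in 21 genes lay on an H3K27me3 peak called lower.

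The 6 genes with the lowest FDR for H3K27me3 included developmental regulators. Sox5 encodes an HMG-box transcription factor, and its H3K27me3 peak of 3367 bp had a log2 ratio of -1.44 (FDR 0.000125) in the authors' deposited table. The Sox5 member on it, at chr6:143858551-143858900, had 117, 64, 89 and 56 ATAC-seq counts in old libraries, against 177, 163, 142 and 190 in young ones, with no overlap. Mecom, which encodes the zinc finger factor EVI1, lay under a peak of 30549 bp with a log2 ratio of -0.56 (FDR 0.000181) in the authors' deposited table, and its member had 123, 106, 142 and 121 counts in old libraries, against 204, 228, 193 and 247 in young ones. The Mecom H3K27me3 level on the authors' log2 scale was 11.9 in old and 12.46 in young samples.

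Zic1, a zinc finger gene of neural development, had an H3K27me3 log2 ratio of -0.62 (FDR 0.00116) in the authors' deposited table. Its member was thin, with 50, 29, 11 and 33 counts in old libraries, against 68, 34, 48 and 85 in young ones, which overlapped. Ttbk1, a tau tubulin kinase gene (-0.51), Emx2os, antisense to the homeobox gene Emx2 (-0.55), and Arhgap26, a GTPase-activating protein gene (-0.55), completed the 6 in the authors' deposited table, with FDR between 0.00159 and 0.00212. Reads of Emx2os and Emx2 peaks cannot be assigned to one of the overlapping genes. The Arhgap26 member had 277, 381, 342 and 281 counts in old libraries, against 596, 556, 534 and 724 in young ones, with no overlap.

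Most H3K4me3 peaks under members were called lower in old. Of the 166 H3K4me3 peaks under members, 138 (83.1%) were called lower and 1 was called higher, against 79.1% lower and 0.281% higher over the authors' deposited table and 92.5% lower under all other listed ATAC-seq peaks. Their median log2 ratio was -1.29, against -1.37 over the table. Of the 68 that the authors annotated to introns, 44 were called lower, against 52.1% of all intronic peaks of the authors' deposited table. Of the 93 annotated to promoters, 89 were, against 95.4% of all promoter peaks. In all, 150 members lay on an H3K4me3 peak called lower.

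The 6 genes with the lowest FDR for H3K4me3 all had an H3K4me3 peak that the authors annotated to a promoter and that overlapped the intronic member. Ppp1r13l, which encodes the p53-binding protein iASPP, had a log2 ratio of -1.66 (FDR 1.97e-07) in the authors' deposited table, and its member had 477, 419, 461 and 519 ATAC-seq counts in old libraries, against 696, 936, 664 and 504 in young ones. Acaca, acetyl-CoA carboxylase, the rate-limiting enzyme of fatty acid synthesis, had -1.55 (FDR 2.08e-07), and Igfbp5, an IGF-binding protein gene, had -1.68 (FDR 2.91e-07) in the authors' deposited table. Slc25a38, a mitochondrial glycine carrier gene, had -1.79, Sik3, a salt-inducible kinase gene, -1.47, and Zfp710, a zinc finger gene, -1.53 in the authors' deposited table. ATAC-seq counts of the ages overlapped at 5 of these 6 members, the exception being Igfbp5.

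The single H3K4me3 peak called higher under a member was in the first of 16 introns of Mdga2, which encodes a GPI-anchored adhesion molecule of synapses. That peak, of 485 bp, had a log2 ratio of 2.27 (FDR 3.87e-08) in the authors' deposited table, with a level of 9.27 in old and 7 in young samples on the authors' log2 scale. The Mdga2 member had 379, 271, 365 and 329 ATAC-seq counts in old libraries, against 766, 442, 265 and 538 in young ones, and young library 3 was lower than every old library. The log2 ratio of the ATAC-seq peak was -0.58, opposite in sign to that of H3K4me3.

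Pol2 under members was called lower or not called. Of 65 Pol2 peaks under members, 17 (26.2%) were called lower and 0 higher, against 52.9% lower and 0.0442% higher over the authors' deposited table and 52.7% lower under all other listed ATAC-seq peaks. Of the 35 annotated to introns, 6 were called lower, against 16.5% of all intronic Pol2 peaks of the authors' deposited table. Of the 25 annotated to promoters, 11 were, against 81.8% of all promoter Pol2 peaks. The median log2 ratio under members was -1.20, against -1.72 over the table. In all, 20 members in 17 genes lay on a Pol2 peak called lower.

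The lowest Pol2 FDR was in Tmem241, where the old level of -0.18 is the lowest of the authors' deposited table and therefore gives no measured fold. Bicd2, a dynein adaptor gene, had a log2 ratio of -2.61 (FDR 0.00359) in the authors' deposited table. Slc6a6, the taurine transporter gene, had -1.65 (FDR 0.00442) over a Pol2 peak of 78021 bp that held 2 of the members named by FDR. The first Slc6a6 member had 152, 105, 86 and 97 ATAC-seq counts in old libraries, against 185, 155, 184 and 157 in young ones. Dsg3, a desmosomal cadherin of keratinocytes, had -2.02 (FDR 0.0116) in the authors' deposited table. The Dsg3 member had 768, 663, 528 and 510 counts in old libraries, against 1041, 882, 639 and 1167 in young ones, with overlap through young library 3.

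**Figure D4:**
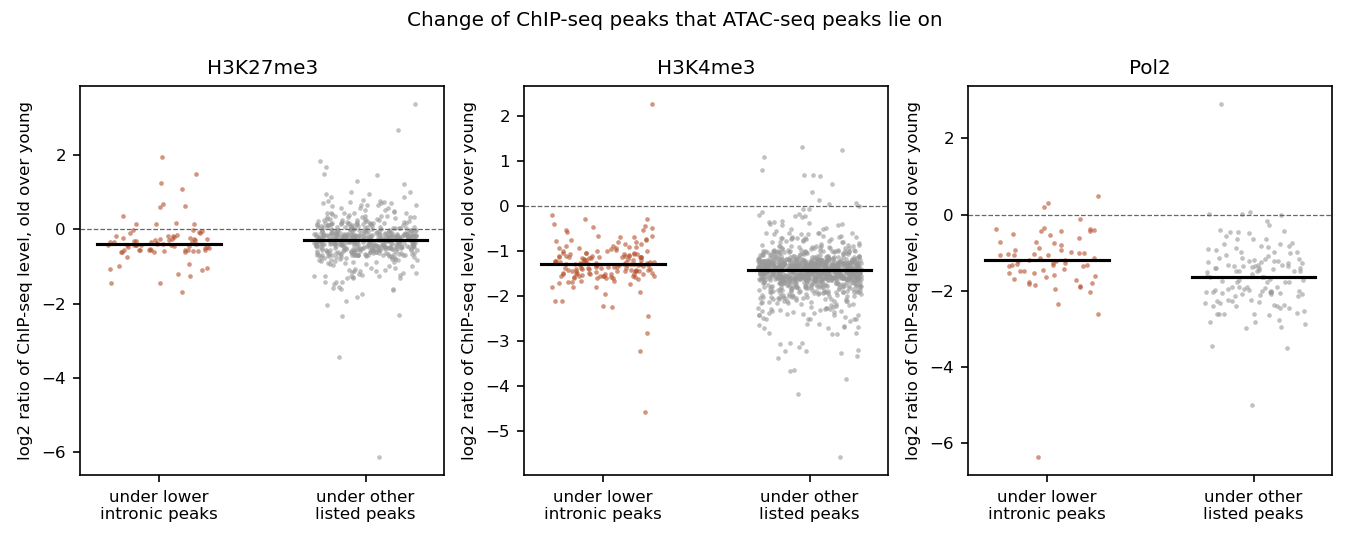
log2 ratio of old to young ChIP-seq level (vertical axis, from the authors' deposited tables) of each H3K27me3, H3K4me3 and Pol2 peak that lies under a member or under another listed ATAC-seq peak. Points are ChIP-seq peaks and lines are medians, which under members are -0.40 for H3K27me3, -1.29 for H3K4me3 and -1.20 for Pol2. The single high H3K4me3 point under members, at 2.27, is Mdga2.

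Promoters of the host genes were also looked up in the ChIP-seq tables. A gene counted as bivalent when an H3K4me3 peak annotated within 1 kb of its start shared at least 1 base with any H3K27me3 peak, whatever the annotation of that H3K27me3 peak. An H3K4me3 promoter peak was listed for 1096 of the 1434 host genes, and 203 of them (18.5%) were bivalent, against 1779 of 11585 genes (15.4%) over the authors' deposited tables. Of the genes with 3 or more members, 28 of 135 (20.7%) were bivalent. H3K27me3 promoter peaks of host genes were called lower in 15.3%, against 10.8% over the authors' deposited table, and called higher in 1.64%, against 3.11%. For genes with 3 or more members, 9 of 75 (12%) were called lower and 0 higher. The share called lower was 11.7% for genes with an intronic peak that had more counts in old. H3K4me3 promoter peaks were called lower in 96.2%, against 95.4%. Pol2 promoter peaks were called lower in 79.2%, and in 69.9% for genes with 3 or more members, against 81.8% over the authors' deposited table.

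Of the 12 genes with most members, Ltbp1, Pde4d and Auts2 had bivalent promoters. The H3K27me3 promoter peak with the lowest FDR was called lower in Pde4d (log2 ratio -0.90, FDR 0.0256) and Auts2 (-2.46, FDR 0.04) in the authors' deposited table. It was not called in Dlc1 (-0.12, FDR 0.863) or Adgrv1 (-0.49, FDR 0.211), and the rest of the 12 had no H3K27me3 promoter peak listed. Sgms1 had a promoter Pol2 log2 ratio of -2.61 (FDR 0.00268), Zbtb16 -3.39 (FDR 0.00131) and Dlc1 -3.89 (FDR 0.0422) in the authors' deposited table. Aopep missed the threshold for Pol2, at -1.29 (FDR 0.0801).

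RNA of the host genes changed in both directions. The authors' deposited table lists 597 genes with an adjusted p up to 0.1, and 47 of them held a member. At an adjusted p under 0.05, 15 of the 47 were called higher in old (31.9%), against 38% of all listed genes, and 17 were called lower (36.2%), against 18.8% of all listed genes. Put the other way, 6.61% of the RNA genes called higher and 15.2% of those called lower held a member, and 6.15% of all protein-coding RefSeq genes did. Gene length was not part of these counts.

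Among genes with 3 or more members, 4 were called higher and 3 lower. Pappa, with 6 members, had a log2 ratio of 0.69 ± 0.15 (SE, adjusted p = 0.00139), Dlc1, with 6, had 0.71 ± 0.21 (adjusted p = 0.0348), Fgfr2, with 5, had 0.45 ± 0.12 (adjusted p = 0.0131) and Pde4b, a cAMP phosphodiesterase gene with 3, had 0.58 ± 0.14 (adjusted p = 0.00704), all in the authors' deposited table. The lower ATAC-seq counts of these genes are unscaled: under TMM scaling the log2 ratios of the summed members were -0.00099 in Pappa and -0.03 in Dlc1. Fhod3, a formin gene with 4 members, had -0.92 ± 0.23 (adjusted p = 0.00806), Socs6, a suppressor of cytokine signalling gene with 3, had -0.57 ± 0.15 (adjusted p = 0.0146) and Tmco4, with 3, had -0.58 ± 0.18 (adjusted p = 0.0469) in the authors' deposited table.

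The Fgfr2 member with the largest fold had 151, 117, 130 and 157 ATAC-seq counts in old libraries, against 323, 289, 217 and 223 in young ones, with no overlap. Fgfr2 encodes a receptor for fibroblast growth factors. The Fhod3 member with the largest fold had 89, 52, 49 and 12 counts in old libraries, against 139, 189, 173 and 108 in young ones, also with no overlap. The Socs6 member with the largest fold had 94, 93, 47 and 20 counts in old libraries, against 78, 138, 125 and 261 in young ones, and young library 1 lay among the old ones there.

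Genes with 1 or 2 members made up the rest of the RNA calls. The highest RNA rise was in Galnt14, a mucin-type glycosyltransferase gene, with a log2 ratio of 1.11 ± 0.20 (SE, adjusted p = 2.97e-05) in the authors' deposited table. The Galnt14 member had 145, 109, 144 and 101 ATAC-seq counts in old libraries, against 208, 243, 182 and 392 in young ones, and every old count was below every young one. Kcnn3, a calcium-activated potassium channel gene (0.83), Fam78b (0.80), Ngef, a guanine nucleotide exchange factor gene (0.79), Abcg2, an efflux transporter gene (0.67), Ntrk2, the receptor gene for BDNF (0.66), and Plcb4, a phospholipase C gene (0.51), were also called higher in the authors' deposited table.

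Sema3d, a semaphorin gene, had an RNA log2 ratio of -1.04 ± 0.18 (SE), Ebf1, a transcription factor gene, -1.02 ± 0.18, and Igfbp5 -0.78 ± 0.14, each with adjusted p = 1.15e-05 in the authors' deposited table. At Igfbp5, RNA, promoter H3K4me3 and the intronic peak were all lower in old: the peak had 394, 466, 374 and 469 counts in old libraries, against 518, 618, 644 and 687 in young ones. The Igfbp5 peak was lower by the rule, and 95.4% of all promoter H3K4me3 peaks were called lower, so nothing is read from the shared direction. Its log2 ratio of -0.53 was also smaller than the shift of 0.59 that TMM scaling gave all listed peaks. The Ebf1 peak had 277, 144, 226 and 295 counts in old libraries, against 456, 409, 342 and 201 in young ones, with overlap through young library 4. Ebf1 also held an intronic peak with more counts in old. Cd276, an immune checkpoint ligand gene (-0.77), Tbxas1, thromboxane synthase (-0.81), Pik3c2b, a lipid kinase gene (-0.59), Creb3l1 (-0.75) and Dpyd, dihydropyrimidine dehydrogenase (-0.53), were called lower in the authors' deposited table.

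**Figure D5:**
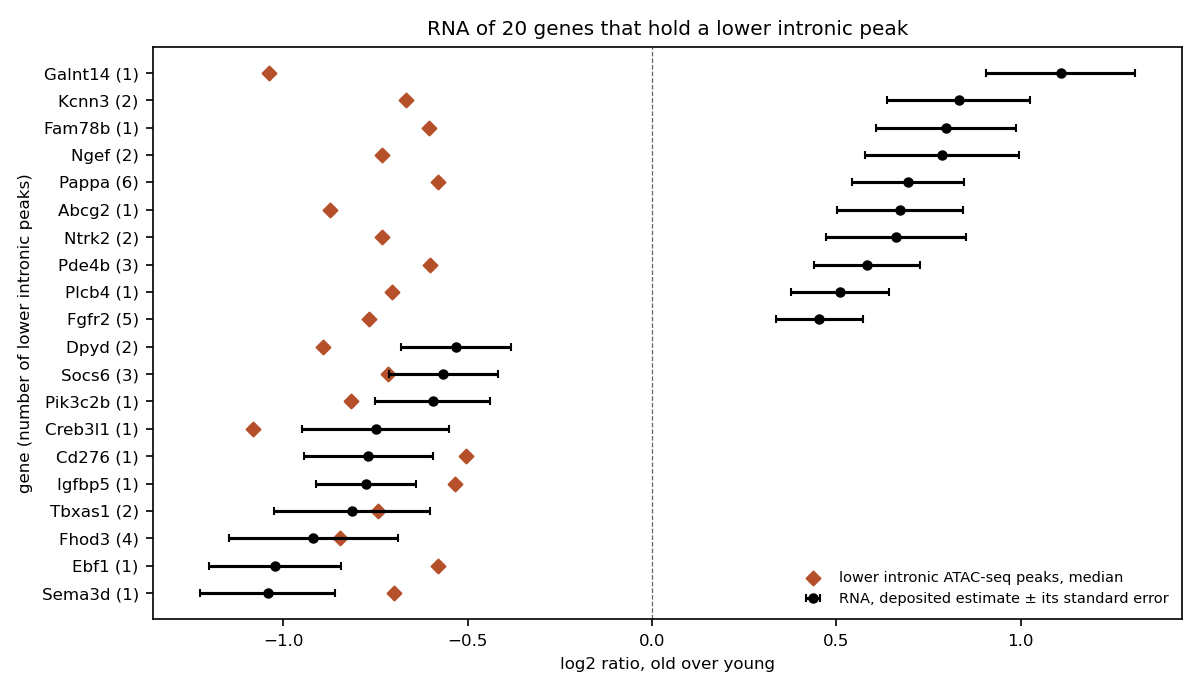
log2 ratio of old to young (horizontal axis) for the 10 host genes with the lowest RNA adjusted p in each direction. Black points are the authors' deposited RNA estimates with their standard errors, diamonds are the median log2 ratio of the gene's lower intronic ATAC-seq peaks, and the number of such peaks is in brackets. All diamonds are below 0 by the rule, while RNA runs from -1.04 in Sema3d to 1.11 in Galnt14.

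Gene lists of the tissue were counted for members. Of 25 transcription factor genes known from hair follicle stem cells, 10 held 27 members, with a median log2 ratio of -0.67. The most were in Hmga2, a chromatin architectural protein gene, and in Nfib, a nuclear factor I gene of these stem cells, with 5 each. The Nfib member with the largest fold had 39, 41, 45 and 46 counts in old libraries, against 77, 88, 61 and 80 in young ones. The Hmga2 member with the largest fold was thin, with 20, 26, 22 and 3 counts in old libraries, against 64, 74, 44 and 45 in young ones. Tcf7l2, which carries Wnt signals to DNA, held 4 members. Of the 27 members, 10 lay on a Pol2 peak and 8 on an H3K4me3 peak, against 3.46% and 7.62% of all members, and members of one gene are not independent. RNA of 0 of the 25 genes was called by DESeq2 in either direction in the authors' deposited table, which leaves out genes above an adjusted p of 0.1. Of its 597 genes 227 were called higher and 112 lower, and it gives no share over all genes tested. Developmental regulators had 4 lower and 1 higher calls, surface and niche genes 2 lower and 1 higher. Notch, Hedgehog and FGF genes had 3 higher, and no other list had more than 1 call.

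Of 20 surface and niche genes of the stem cells, 4 held 1 member each: Dkk3, Igfbp5, Lgr6 and Col17a1, the collagen of hemidesmosomes that is needed to keep the stem cells. The Col17a1 member, in the first of 52 introns, had 198, 182, 206 and 126 counts in old libraries, against 252, 282, 272 and 300 in young ones, with no overlap. The sort markers Cd34 and Itga6 held 0 members. Among 34 basement membrane genes 11 held 15 members, and Fras1, Col4a2, Lama3 and Smoc2 held 2 each. Among 40 integrin, adhesion and actin genes 15 held 31 members, with Dlc1 (6) and Myh9, the non-muscle myosin IIA gene (3), holding the most. Itgb6 and Tns3, a tensin gene, were among several with 2. Of these 40 genes 1, Dlc1, had an RNA call in the authors' deposited table, and it was higher.

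Signalling lists gave similar sizes. Of 55 Wnt pathway genes 15 held 25 members, led by Tcf7l2 (4), Lgr4 (3), the corepressor gene Tle4 (3) and the receptor gene Ror1 (3). Ror1 also held 2 intronic peaks with more counts in old. Of 46 BMP and TGF-β genes 11 held 25 members, led by Ltbp1 (8), the inhibitor Smad7 (3), the receptor gene Bmpr1b (3) and the ligand gene Bmp7 (3), and 0 held an intronic peak with more counts. The Bmpr1b member with the largest fold had 201, 176, 184 and 54 counts in old libraries, against 261, 233, 383 and 319 in young ones, with no overlap, and old library 4 was the lowest. Of 43 Notch, Hedgehog and FGF genes 6 held 11 members, led by Fgfr2 (5), and the Notch1 member had 550, 634, 636 and 664 counts in old libraries, against 789, 1346, 942 and 1087 in young ones.

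Of 19 genes of the EGF receptor family and its ligands 5 held 7 members, with Egfr and its feedback inhibitor Errfi1 holding 2 each. Of 22 YAP and TEAD genes 4 held 7 members, 3 of them in Wwtr1, which encodes TAZ. The single Yap1 member had 46, 96, 54 and 31 counts in old libraries, against 112, 51, 102 and 114 in young ones, with overlap. Of 77 developmental regulators 12 held 27 members, with Foxn3 and Sox5 at 5 each and the nuclear receptor gene Rora at 4. Of 24 AP-1 and immediate early genes 2 did, Bach2 with 3 members and Atf3 with 1, and of 37 imprinted genes 4 did, led by Usp29 with 3. Intronic peaks with more counts in old were also listed, 9 in 6 developmental regulators and 5 in 5 basement membrane genes. The Wnt list had 4 in 3 genes, the stem cell transcription factors 3 in 3, and every other list 2 or fewer. List genes differ in length (median 7.57 kb for AP-1 genes and 131 kb for the stem cell transcription factors), and members were more frequent in long genes, so the shares of lists are not comparable with each other.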

How the data were processed

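Per the submitters' processing notes, BWA 0.7.12 placed the ATAC-seq reads on GRCm38. Per the file headers, the deposited ATAC-seq columns are counts for each library and peak, the log2 ratio and the −log10 p-value. No source used here gives the ATAC-seq peak caller or how the ChIP-seq levels were normalized. Young over old is the direction of the authors' log2 ratio, and it was turned. ChIP-seq (BWA 0.7.15, MACS2 2.2.7.1, DiffBind 2.14.0) and RNA-seq (STAR 2.5.2b, featureCounts, DESeq2 1.22.2) were processed per the submitters' processing notes. Their tables hold group values only: the authors' log2 levels and differences, mean normalized signal, standard error, test score, p-value and FDR or adjusted p-value, per the file headers.

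Group means, log2 ratios, host genes (from the annotated gene ID, RefSeq GRCm38.p6) and overlaps were computed with Python 3.11.15 and pandas 2.3.3 on unscaled counts, and scaling factors with edgeR 4.0.16 and DESeq2 1.42.0. The overlap script was tested on simulated intervals. Intron numbers of the ATAC-seq table ran from the low coordinate: at overlapping intronic ChIP-seq peaks with as many introns, 55 of 57 numbers were the same on the plus strand, and 0 of 69 on the minus strand, where all 69 were after turning. No ATAC-seq test was run, because listing and rule used the same libraries. No pair of libraries of one age agreed within sampling noise (lowest chi-square per degree of freedom 10.8). Sums over listed peaks are not library depths, which are unknown. The authors' ChIP-seq and RNA p-values measure the spread between samples that the series calls biological replicates. What spread the deposited ATAC-seq p-values measure was not tested. The Pappa peak at chr4:65242801-65243050, where the ages overlapped widely, had a −log10 p-value of 2.54. ChIP-seq and RNA calls use the authors' adjusted values at 0.05.

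Named genes were those with most members (12), the members with the largest fold (10) and highest count (5), those lowest in FDR for each mark (6) or adjusted RNA p (10) in each direction, and up to 4 per list. The members and lists were chosen with earlier results of these data known. Both strands of the start windows were searched for 8 letter patterns. The AP-1 pattern was TGANTCA and the pattern used for TEAD factors was ACATTCC. Runx factors were given TGTGGT, and for GATA factors AGATAA was used. The E-box was read as CAGCTG, and the letters taken for Sox factors were ACAATG. The nuclear factor I palindrome and the CTCF core completed the 8, and no pattern contains another. Sequences of the other members were not analysed here, and some items the rules pick are not reported here.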

Additional observations from a re-analysis of the deposited data

Results flagged for a closer look

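Groups of 4 libraries were checked for most of the peaks and sums named in the text. Of 148 such groups, 7 had 1 library far from the other 3, and chance alone flags about 1 in 20 groups. Peaks and sums named only from the gene lists or cell type markers, such as the Bmpr1b peak, were not checked. The sum over all members in young libraries was 839164 counts in young library 4, against 735597 to 737631 in the other 3. The Lgr4 peak had 4438 counts in young library 4, against 3542 to 3570 in the others. The peak nearest to Dad1, whose host was unmatched, had 51 counts in old library 2, against 10 to 13. The Bicd2 peak had 121 counts in old library 2, against 84 to 90. The Abcg2 peak had 103 counts in old library 1, against 18 to 32, and the Pde4b peak with the largest fold had 174 in old library 1, against 47 to 67. The Pik3c2b peak had 47 counts in young library 1, against 124 to 139. At Abcg2, Bicd2, Pde4b and Pik3c2b the far library lay among those of the other age.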

How the results depend on the processing

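The median log2 ratio of the members was -0.0917 with TMM scaling, -0.16 with equal totals and -0.10 with DESeq2 size factors, and libraries did not overlap at 46, 68 and 50 members. These factors are computed on a list in which 85.9% of peaks are lower in old, so they recentre the change that most listed peaks share. Genes with 3 or more lower intronic peaks numbered 94 with TMM scaling and 100 with DESeq2 factors, and 101 when the deposited −log10 p-value had to reach 3. Above 0 were Lgr4 (0.0532 and 0.0421 with TMM and DESeq2), Dlc1 (0.0304 and 0.0207), Ppp2r5c (0.0717 and 0.0619, and 0.0013 with equal totals), Itgb6 (0.0904 and 0.0803, and 0.0199 with equal totals) and Pappa (0.0073 with TMM). Leaving out each library in turn gave 2275 to 2283 lower intronic peaks, medians of -0.73 to -0.63 and 998 to 1222 members without overlap. Within 1 kb instead of at least 1 base, 144 members had an H3K27me3 peak, 2 lay near one called higher, and 35 lay near a Pol2 peak called lower. At the authors' FDR under 0.01, 14 members lay on an H3K27me3 peak called lower and 7 on a Pol2 peak called lower, and at an adjusted p under 0.01, 5 host genes were called higher and 5 lower in RNA. Counted by the nearest start, 142 genes had 3 or more members, a setting chosen after seeing the data, as were leaving out both libraries numbered 4 and the members outside RefSeq bounds (150 genes). No paired analysis was possible because no test was run on ATAC-seq counts, no label says that equal library numbers mark a shared animal, litter or day, and the other tables hold group values only. Small peaks limit precision: the 571 members with the lowest counts had mean young counts of 37.3 to 159.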

Other observations

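Markers of other cell types were counted among the members. Of 16 endothelial, muscle and glial markers 5 held 7 members, among them Flt1 and Tek with 2 each and Pecam1 and Vwf with 1. The summed counts of these 7 members were 1471, 1385, 1320 and 1079 in old libraries, against 2013, 1903, 2097 and 1985 in young ones. Of 14 fibroblast markers 1 held a member (Fbln1), of 16 interfollicular and differentiation genes 1 did (Tgm3, with 2 members), and of 18 immune, 9 melanocyte and 9 sebaceous gland genes 0 did. The part of other cell types in the counts was not tested.

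The share of listed intronic peaks with fewer counts differed between chromosomes, from 66.7% of 150 peaks on chromosome 6 to 94.1% of 119 on chromosome 19. Members clustered locally to some extent, with 245 of them within 10 kb of the previous member and a median gap of 347 kb. Of the matched members, 37 lay outside the RefSeq bounds of the gene in their annotation.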
